A study of Homo sapiens with 6 samples.

Results

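The HOXA gene cluster was examined for listed SMAD2/3 binding sites in 2 cell lines derived from human triple-negative breast cancers, Hs578T and BT549. All peaks whose midpoint lay on chromosome 7 from 27138000 to 27300000 of the hg19 build were taken, an interval of 162 kb that reaches from HOXA2 to HOXA13, 10 genes in all, and on into the flank beyond HOXA13. This gave 48 of the 20600 peaks of the series. Chromatin immunoprecipitation and sequencing (ChIP-seq) had been done with 1 antibody that recognises both SMAD2 and SMAD3. Each line was stimulated with recombinant human TGFβ3 for 1.5 h or 16 h, with 1 library per line and time. There were therefore no replicates, no difference between libraries was tested, and every value describes the library it comes from. The labels give no dose of TGFβ3 and list no unstimulated SMAD2/3 library, so no level before stimulation could be set beside these peaks. Hs578T was grown in DMEM and BT549 in RPMI-1640, both with 10% serum and with insulin, at 10 μg/ml for Hs578T and 0.023 IU/ml for BT549, so line and medium cannot be told apart. The input DNA samples, 1 per line and labelled untreated, were not analysed here.

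SMAD2 and SMAD3 are phosphorylated by the activated TGFβ receptor, join SMAD4 and enter the nucleus, where they bind DNA beside other transcription factors. HOX genes encode homeodomain transcription factors that give cells their position along the body axis. In each cluster the genes lie in the order in which they act along that axis, and whole stretches of a cluster are held silent by Polycomb or active by Trithorax proteins, so that a differentiated cell keeps its own HOX pattern. By the RefSeq gene table, which is on GRCh38 and was used for gene order alone, the genes follow each other with rising position as HOXA2, HOXA3, HOXA4, HOXA5, HOXA6, HOXA7, HOXA9, HOXA10, HOXA11 and HOXA13, and then EVX1. HOXA2 patterns the hindbrain and the second pharyngeal arch, and HOXA3 the third arch with the thymus and parathyroid. HOXA4, HOXA5, HOXA6 and HOXA7 act in the neck and trunk, and HOXA5 is also known in breast epithelium as an activator of the p53 gene. HOXA9 is best known from blood stem cells and leukaemia, HOXA10 and HOXA11 from the uterus, and HOXA13 from the digits and the genital tract. EVX1, next to the cluster, encodes another homeodomain factor.

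SMAD3 and SMAD4 recognise the short element CAGAC, which is GTCTG on the other strand. The promoters below, chosen after the matches were counted, are shown to let this element be seen in the cluster. They are the 250 bases before the RefSeq transcript start, on GRCh38.p14, written 5′ to 3′ on the gene's strand, with CAGAC or GTCTG in capitals. They come from another build than the peaks, so no peak was placed on them. The promoter table held 9 of the 10 genes, with 16 starts. HOXA5 was not matched.
HOXA2, chr7:27102684-27102933, strand -: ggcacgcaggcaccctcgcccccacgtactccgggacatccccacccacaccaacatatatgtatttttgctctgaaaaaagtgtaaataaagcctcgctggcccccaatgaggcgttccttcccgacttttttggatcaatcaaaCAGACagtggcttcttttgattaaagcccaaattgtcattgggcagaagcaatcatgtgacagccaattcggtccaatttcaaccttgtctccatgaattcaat
HOXA4, chr7:27130758-27131007, strand -: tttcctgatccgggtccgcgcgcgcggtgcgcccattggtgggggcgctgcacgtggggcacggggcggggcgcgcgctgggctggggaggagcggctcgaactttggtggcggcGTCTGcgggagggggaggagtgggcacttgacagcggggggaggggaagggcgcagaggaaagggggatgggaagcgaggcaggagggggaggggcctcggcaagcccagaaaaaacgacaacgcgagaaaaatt
HOXA7, chr7:27156676-27156925, strand -: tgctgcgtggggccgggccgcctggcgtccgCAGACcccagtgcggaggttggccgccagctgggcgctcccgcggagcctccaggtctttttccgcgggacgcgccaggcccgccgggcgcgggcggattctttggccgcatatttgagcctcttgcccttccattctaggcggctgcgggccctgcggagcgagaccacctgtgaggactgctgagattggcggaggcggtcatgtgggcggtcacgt
HOXA9, chr7:27165538-27165787, strand -: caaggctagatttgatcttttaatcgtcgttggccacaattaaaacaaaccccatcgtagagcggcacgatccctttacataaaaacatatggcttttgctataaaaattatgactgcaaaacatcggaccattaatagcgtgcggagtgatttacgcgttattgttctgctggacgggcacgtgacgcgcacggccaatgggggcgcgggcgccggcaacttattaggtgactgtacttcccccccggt
HOXA10-HOXA9, chr7:27180240-27180489, strand -: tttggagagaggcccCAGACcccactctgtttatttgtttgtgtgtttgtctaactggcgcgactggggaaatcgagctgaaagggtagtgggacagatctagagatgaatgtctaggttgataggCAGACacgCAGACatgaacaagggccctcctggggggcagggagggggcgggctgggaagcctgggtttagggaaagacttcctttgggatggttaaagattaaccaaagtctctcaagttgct
The start of HOXA10-HOXA9, a read-through transcript that joins both genes and is not counted among the 16 starts, held the element 3 times. HOXA2, HOXA4 and HOXA7 held it once, and HOXA9 did not hold it within these bases. Of the 7 HOXA3 starts, 4 held it. Over the cluster, 7 of the 16 starts held the element at least once, against 38.0% of all 35116 promoters in the table, and 3 or more copies were found in 1.62% of all promoters. The AP-1 element TGANTCA, searched on both strands, was in none of the 16 starts and in 6.57% of all promoters. These are matches of letters and say nothing of whether a factor binds there.

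Hs578T had dense SMAD2/3 occupancy over the HOXA cluster at both times, while BT549 had few listed sites there, although its peak lists were several times longer. The window held 22 of 1373 Hs578T peaks at 1.5 h, or 1.60% (1.06 to 2.41, 95% Wilson interval), and 19 of 1849 at 16 h, or 1.03% (0.659 to 1.60). In BT549 it held 2 of 9225 peaks at 1.5 h, or 0.0217% (0.00595 to 0.0790), and 5 of 8153 at 16 h, or 0.0613% (0.0262 to 0.143). All intervals reflect counting error alone. The window was chosen by the number and the scores of its Hs578T peaks in these same lists, so these values describe it and are not a test.

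Among 18822 other windows of the same length laid end to end from the start of each chromosome, none (0%) held as many peaks as the HOXA window in either Hs578T library, and the fullest held 14 at each time. The mean was 0.0717 peaks per window at 1.5 h and 0.0971 at 16 h. Such fixed edges can cut through a dense stretch. Placed at any position off the HOXA window, which was tried after the fixed windows were seen, a window of this length held at most 14 Hs578T peaks at 1.5 h, at the start of chromosome 1, and at most 20 at 16 h. The window with 20 lay on chromosome 17, with peak midpoints from 46570200 to 46724137, in and beside the HOXB cluster. HOXA was thus the densest place in Hs578T at 1.5 h. At 16 h the 20 came from the best position, while the 19 HOXA peaks were counted at fixed edges. Other Hs578T 16 h peaks lay before those edges, the furthest from 27072630 to 27072715 and the nearest from 27135766 to 27135953. Widened by 100 kb on each side, the HOXA window held 22 Hs578T 16 h peaks. These lay from 27072630 to 27227799, a stretch shorter than 162 kb. A moved window of the HOXA length can thus hold 22, against 20 at the best position off HOXA. In BT549 at 1.5 h, 2036 of the fixed windows (10.8%) held at least the 2 peaks of the HOXA window, against a mean of 0.490. At 16 h, 165 windows (0.877%) held at least its 5 peaks, against a mean of 0.433.

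Each peak has a score from the authors' peak caller, which grows with the enrichment over background and also with the depth of the library. Depth is unknown here, so scores are compared within a list, by rank, where 1 is the highest score. Where scores or their ratios are given across times, they are not corrected for depth and no gain in binding is read from them. The HOXA window held the highest-ranked Hs578T peak of the whole genome at both times. At 1.5 h, 5 of the 100 highest-scoring Hs578T peaks lay in it, and at 16 h 7 did. None of the 100 highest-scoring BT549 peaks lay in it at either time, and the best ranks there were 670 at 1.5 h and 223 at 16 h. Of the 22 Hs578T peaks at 1.5 h, 6 scored 100 or more, or 27.3% (13.2 to 48.2), against 12.0% over the whole list. At 16 h 12 of 19 did so, or 63.2% (41.0 to 80.9), against 18.9% over the whole list. In BT549, 1 of 2 peaks at 1.5 h and 2 of 5 at 16 h did so, against 41.9% and 33.4% over their lists.

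**Figure D1:**
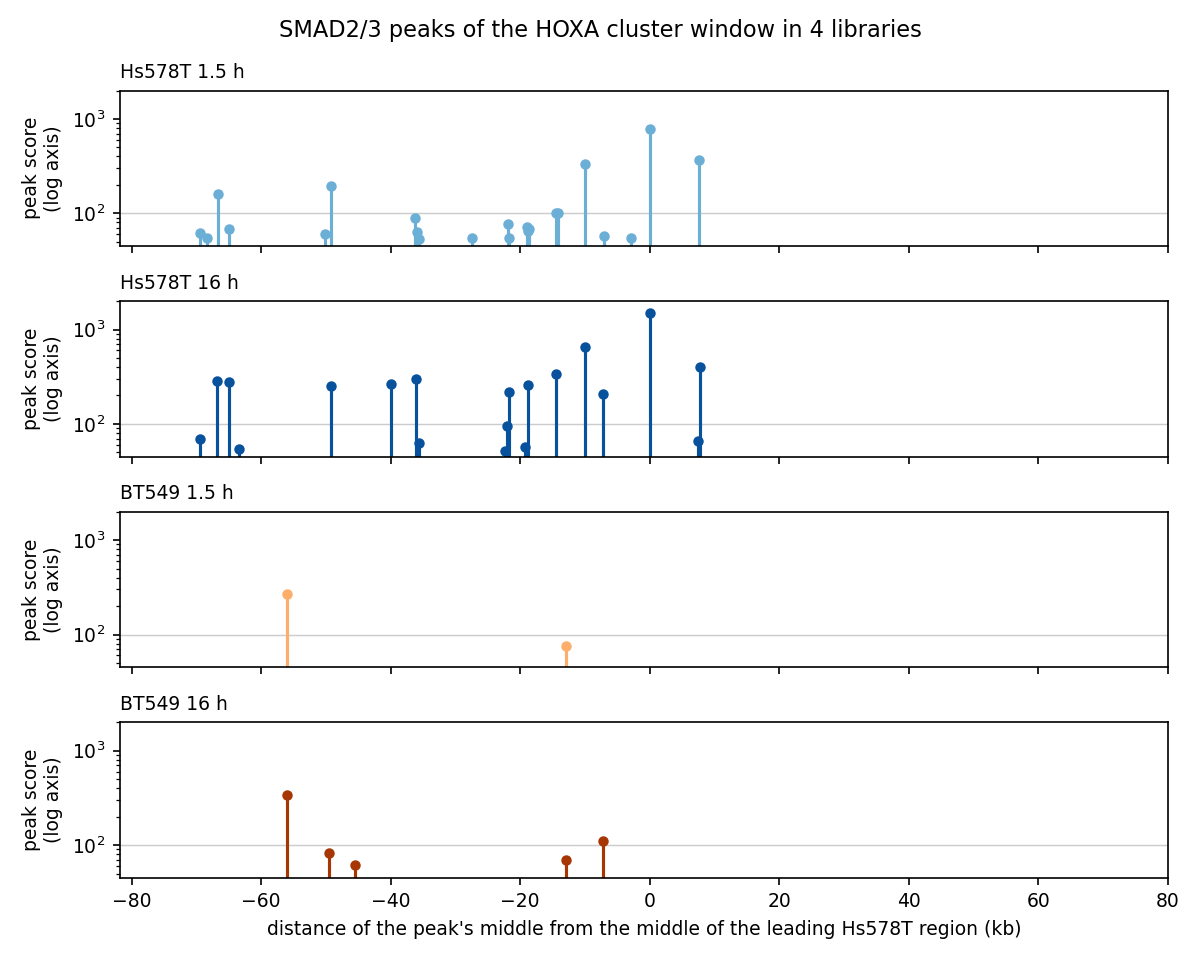
Score of every SMAD2/3 peak in the HOXA window (log axis, grey line at 100) against the distance in kb of its middle from the middle of the leading Hs578T region, 1 panel per library. The 22 and 19 Hs578T peaks fill the left side of the window up to 7.69 kb past the middle of the leading region, and the 2 and 5 BT549 peaks lie within the same stretch.

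The peaks of the 4 lists that touched were merged into 24 regions. Of these, 21 had an Hs578T peak and 5 a BT549 peak, 2 had both, and none had a peak in all 4 libraries. In Hs578T the occupied stretch ran from 27150370 to 27227688 at 1.5 h, 77.3 kb, and from 27150322 to 27227799 at 16 h, 77.5 kb. Within it, neighbouring Hs578T peaks lay a median of 2.51 kb apart at 1.5 h and 2.23 kb at 16 h, with no gap over 14.6 kb. From the last peak to the end of the window, 72.3 kb and 72.2 kb held no Hs578T peak, and the next peak along the chromosome was 1223 kb away at 1.5 h and 221 kb at 16 h. On the other side, the peak nearest to the window's start that was left out lay from 27135766 to 27135953, with a score of 87.2 in Hs578T at 16 h, and the first one taken was the region from 27150322 to 27150543, with 62.0 at 1.5 h and 68.7 at 16 h. The peak left out lay 14.4 kb from the first one taken at 16 h, about as far as the widest gap inside the window, 13.9 kb, so the start of the occupied stretch at 16 h is set by the window's edge. At 1.5 h the nearest peak before the window lay 65.0 kb from the first one taken. The occupied stretch, called the block from here on, thus ended well before the window's far end. Peaks were not assigned to single HOXA genes, since an annotation of hg19 was not used here.

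The 3 strongest Hs578T sites at 1.5 h lay near the far end of this block, on the side towards HOXA13, with weaker sites among them. The leading region, from 27219472 to 27220309, scored 783 at 1.5 h and 1498 at 16 h and ranked 1 in both lists. The last region of the block, from 27227214 to 27227799, scored 364 and ranked 11 at 1.5 h. At 16 h it was listed as 2 peaks, of which the stronger scored 403 and ranked 43. Somewhat before the leading region, the site from 27209635 to 27210302 scored 333 at 1.5 h and 647 at 16 h and ranked 15 both times. No BT549 peak overlapped any of these 3 regions in either library. Lack of overlap was the usual case over the whole Hs578T lists. There, 11.2% of peaks at 1.5 h and 10.3% at 16 h overlapped a BT549 peak of the same time.

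Most of the Hs578T sites were listed at both times. Of the 22 peaks at 1.5 h, 18 overlapped a 16 h peak by at least 1 bp, or 81.8% (61.5 to 92.7), against 27.8% of the whole 1.5 h list. Of the 19 at 16 h, 15 overlapped a 1.5 h peak, or 78.9% (56.7 to 91.5), against 20.1% of the whole 16 h list. The peaks of the HOXA window were stronger than those of the whole lists, so the share was also taken by score. With a score of 100 or more, 6 of 6 peaks at 1.5 h recurred at 16 h, against 89.1% of such peaks in the whole list, and 11 of 12 at 16 h overlapped a 1.5 h peak of any score, against 64.0%. Of these 12, 6 overlapped a 1.5 h peak that itself scored 100 or more, a share not taken over the whole list. With a score under 100, 12 of 16 at 1.5 h recurred, or 75.0% (50.5 to 89.8), against 19.5% of such peaks in the whole list. At 16 h 4 of 7 such peaks were listed at 1.5 h, or 57.1% (25.0 to 84.2), against 9.81%. Among these weak peaks the recurring share in the HOXA window lay above that of the list in both directions. The window was chosen from these same lists, so this describes it and is not a test. Neighbouring peaks can fall into 1 longer peak of the other time, so the shares do not count independent sites. When 50% of both peaks had to overlap, 6 of 22 (27.3%) and 6 of 19 (31.6%) recurred. The shares of the whole lists under this limit were not taken, so these do not compare with the 27.8% and 20.1% at 1 bp.

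Counted as regions, 17 were occupied in Hs578T at 1.5 h and 17 at 16 h, of which 13 were occupied at both times, 4 only at 1.5 h and 4 only at 16 h. All 13 had a higher score at 16 h, as did 77.7% of the 350 Hs578T regions with a peak at both times over the whole genome. The median ratio of the 16 h to the 1.5 h score was 1.94 in the 13 HOXA regions, with a range of 1.11 to 4.06, and 1.44 over all 350. The ratio was above that genome-wide median in 9 of the 13. It was 2 or more in 6 of the 13, against 30.0% of all 350. Scores also move with depth, which is unknown. By rank within each list, 7 of the 13 stood higher at 16 h, 2 were level and 4 stood lower, against 45.7% higher over all 350. These ranks come from lists of 1373 and 1849 peaks, and no change was read from them.

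**Figure D2:**
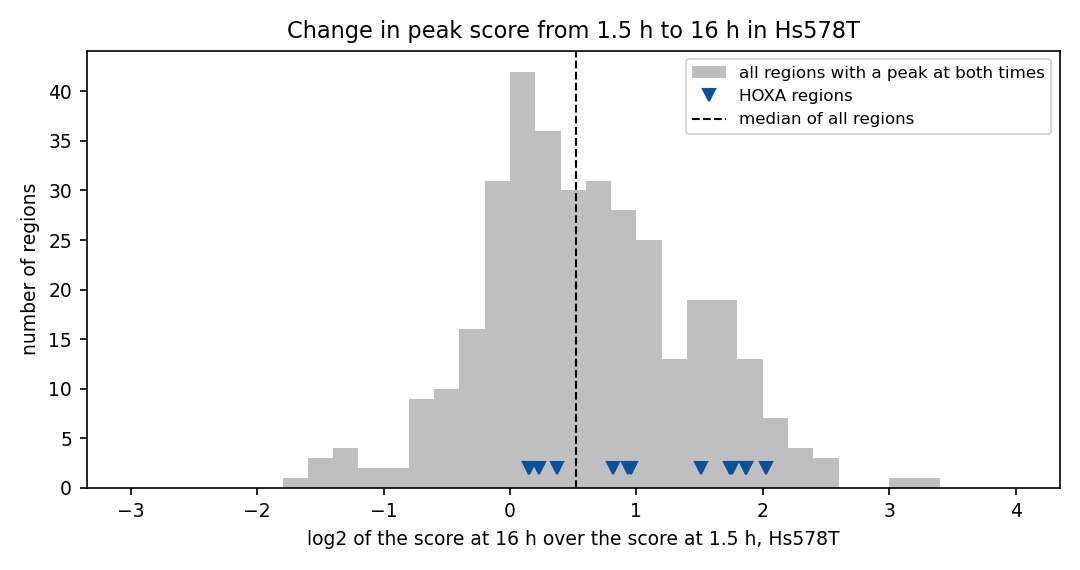
Number of Hs578T regions (grey bars, 350 regions) by the log2 ratio of the highest score at 16 h to that at 1.5 h, with the 13 HOXA regions as triangles at an arbitrary height and the median of all regions as a dashed line. All HOXA regions lie above 0, and 9 of them lie to the right of the median, whose ratio is 1.44.

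The 6 regions with the largest score ratios were weak or middling at 1.5 h and strong at 16 h. They lay scattered over the block. The site from 27154771 to 27155186 scored 68.7 at 1.5 h and 279 at 16 h, with ranks of 388 and 91. A site from 27212453 to 27212988 scored 57.0 and 208, with ranks of 856 and 145. In the stretch from 27200821 to 27201312, 3 narrow peaks with a best score of 71.5 at 1.5 h stood where 1 peak with 260 was listed at 16 h, and the best ranks were 344 and 106. Likewise 2 peaks at 1.5 h were 1 peak at 16 h in the regions from 27205102 to 27205864, with scores of 100 and 338, and from 27183386 to 27184061, with scores of 88.7 and 296. The ranks of these were 165 and 62 in the first, and 208 and 77 in the second. The region from 27197669 to 27198412 had 2 peaks at each time, with best scores of 77.1 and 220 and ranks of 283 and 131. In 12 of the 13 regions the strongest peak was wider at 16 h, as in 81.4% of all 350, and the median width over the 13 was 204 bp at 1.5 h and 460 bp at 16 h. The smaller number of HOXA peaks at 16 h thus went with fewer and wider calls over an equal number of regions.

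Elsewhere in the block the score ratios were smaller. The site from 27152839 to 27153335 scored 160 at 1.5 h and 282 at 16 h, with ranks of 70 and 89. That from 27170228 to 27170982, which includes a BT549 peak described further on, scored 193 and 250, with ranks of 48 and 110. At 16 h the weakest recurring regions were the first of the block, given above, and the one from 27184086 to 27184310, with 54.0 at 1.5 h and 63.2 at 16 h.

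**Figure D3:**
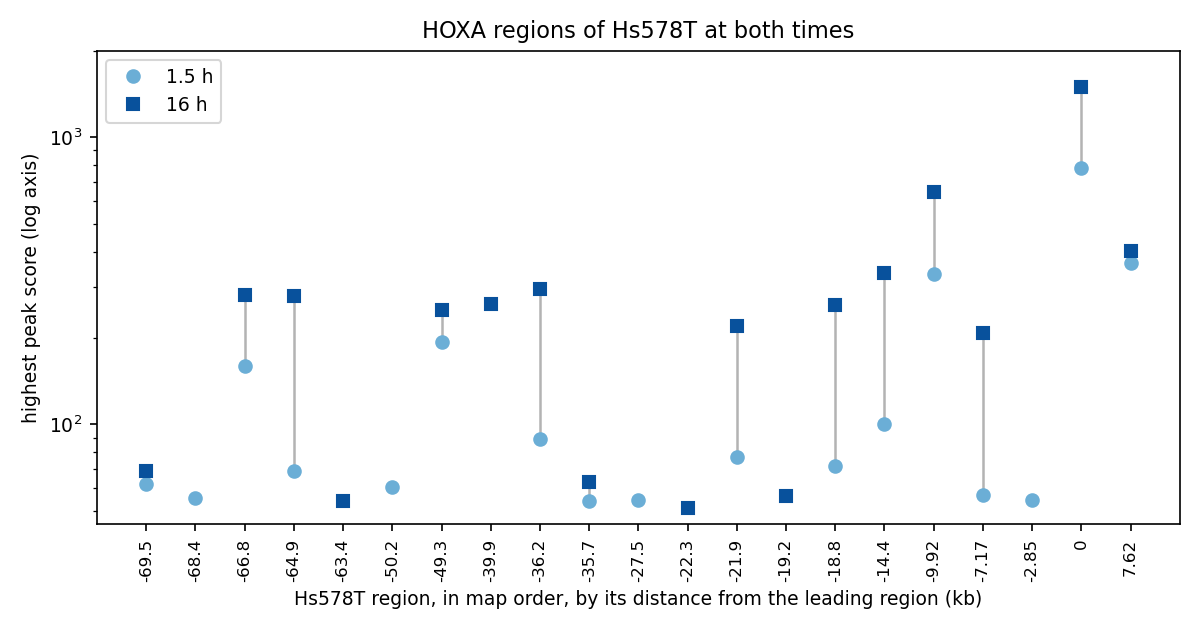
Highest peak score (log axis) of each of the 21 Hs578T regions at 1.5 h (circles) and 16 h (squares), in map order, each named by its distance in kb from the leading region, with a line joining both times where both were listed. The 13 joined pairs all rise, from 1.11-fold to 4.06-fold, and the single points, listed at 1 time, are near the lowest scores except for 1 square at 263.

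The regions listed at 1 time only were weak, with 1 exception. The region from 27179708 to 27180249 had no peak at 1.5 h and a score of 263 at 16 h, where it ranked 101. It was 542 bp wide, and the nearest Hs578T regions on either side were both occupied at both times. The other 3 regions listed only at 16 h scored from 51.2 to 56.3, and the 4 listed only at 1.5 h scored from 54.4 to 60.7. Such scores are close to the lowest in the lists, and a peak missing from 1 list may lie just under the calling limit.

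BT549 had its own strongest HOXA site at a place where Hs578T had none. That region, from 27163676 to 27164132, scored 268 at 1.5 h and 342 at 16 h, with ranks of 670 and 223. It lay 7.12 kb and 5.49 kb from the nearest Hs578T regions on either side. Most BT549 peaks lay apart from Hs578T peaks. Over the whole BT549 lists, 1.59% at 1.5 h and 2.17% at 16 h overlapped an Hs578T peak of the same time. The other BT549 region listed at both times, from 27206768 to 27207021, was weak, with 75.5 and 69.4 and ranks of 5935 and 4841, and lay 0.903 kb from the nearest Hs578T region. Both BT549 peaks at 1.5 h thus recurred at 16 h, against 41.4% of the whole 1.5 h list, and 2 of the 5 at 16 h were listed at 1.5 h, against 46.5%. The ratio of the 16 h to the 1.5 h score was 1.28 at the stronger site and 0.919 at the weaker one, where the median over the 3629 BT549 regions with both times was 0.795 and 31.1% of them had the higher score at 16 h. The 3 regions listed in BT549 only at 16 h were those from 27174326 to 27174525, with 62.2, and the 2 shared with Hs578T.

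Few HOXA sites were listed in both lines. At 1.5 h, 0 of the 22 Hs578T peaks overlapped a BT549 peak, or 0% (0 to 14.9), against 11.2% of the whole Hs578T list. Likewise 0 of the 2 BT549 peaks overlapped an Hs578T peak, against 1.59% of the whole BT549 list. At 16 h, 2 of the 19 Hs578T peaks, or 10.5% (2.94 to 31.4), overlapped a BT549 peak, against 10.3% of the whole list. These were 2 of the 5 BT549 peaks, or 40.0% (11.8 to 76.9), against 2.17% of the whole BT549 list. The share of the Hs578T HOXA peaks was thus close to that of the list at 16 h, and at 1.5 h the list's share lay within the interval given for a count of 0. The first shared place was at the site from 27212453 to 27212988, where the BT549 16 h peak, with a score of 110 and rank 2370, lay wholly inside the Hs578T 16 h peak with 326 bp in common. The second was from 27170228 to 27170982, where the BT549 16 h peak scored 82.2, ranked 3660 and met the edge of the Hs578T 16 h peak over 67 bp. It also met the Hs578T 1.5 h peak over 8 bp. This second place no longer counted as shared when 50% of both peaks had to overlap.

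Humans have 4 HOX clusters, and the HOXA window was set beside 200 kb windows on the clusters HOXB (chromosome 17 from 46600001 to 46800000, which leaves out HOXB13), HOXC (chromosome 12 from 54300001 to 54500000) and HOXD (chromosome 2 from 176900001 to 177100000). In Hs578T, HOXA held 13.6 peaks per 100 kb at 1.5 h and 11.7 at 16 h. HOXB held 6.50 and 10.0, HOXC 7.00 and 8.50, and HOXD 4.50 at both times. These densities depend on how each window was laid. In a window of the HOXA length placed at its best position, 20 peaks lay in and beside HOXB at 16 h. The HOXA window held 19 at its fixed edges. Moved to take in the 16 h peaks that lay before it, a window of this length can hold 22. With the windows as set, HOXA was the only 1 of the 4 with fewer peaks at 16 h than at 1.5 h, with 22 and 19. Without peaks under 150 bp this order turned, with 13 and 17 in HOXA, and with scores of 100 or more it was 6 and 12. Over peaks of every width and score, HOXB had 13 and 20, HOXC 14 and 17, and HOXD 9 and 9. The best rank at 1.5 h and 16 h was 1 and 1 in HOXA, 9 and 5 in HOXD, 42 and 29 in HOXB, and 75 and 80 in HOXC. Of the 1.5 h peaks, 81.8% recurred at 16 h in HOXA, 77.8% in HOXD, 69.2% in HOXB and 64.3% in HOXC. In the other direction HOXD was highest, with 88.9%, followed by HOXA with 78.9%, HOXC with 58.8% and HOXB with 40.0%. In BT549, HOXA held 2 peaks at 1.5 h and 5 at 16 h, HOXB 5 and 2, HOXC 5 and 10, and HOXD none at either time. None of these differences between clusters was tested.

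**Figure D4:**
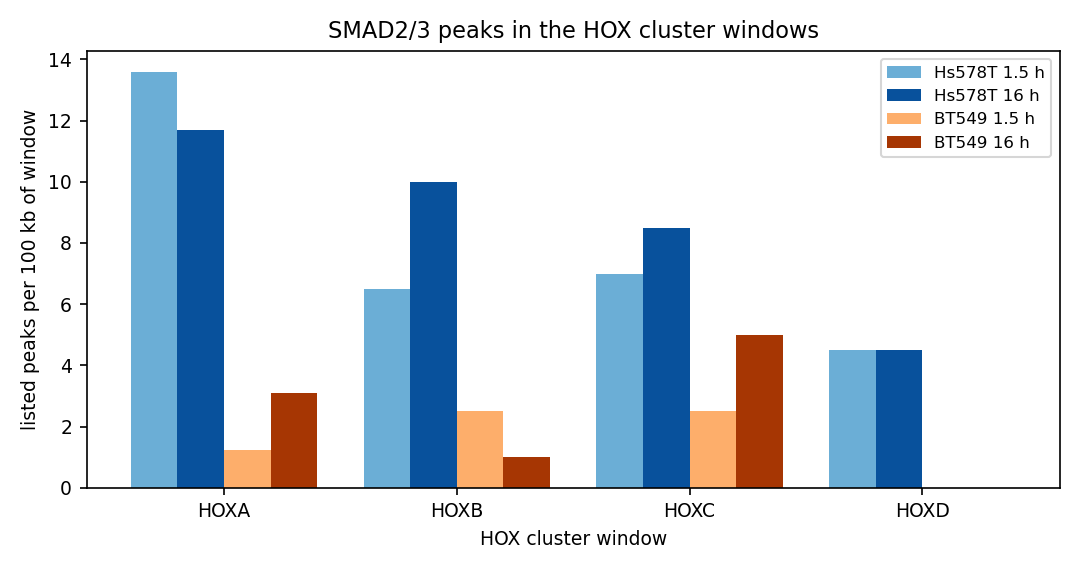
Listed SMAD2/3 peaks per 100 kb in the window of each HOX cluster, 1 bar per library. In Hs578T the HOXA bars are at 13.6 and 11.7 and the HOXB bars at 6.50 and 10.0. The windows were set by hand and differ in length (162 kb for HOXA, 200 kb for the others). At the HOXA length, the best-placed window in and beside HOXB held 20 peaks at 16 h. The HOXA window held 19 at its fixed edges, and a moved window of the same length can hold 22. BT549 bars reach at most 5.00, in HOXC at 16 h, and are absent in HOXD.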

How the data were processed

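Binding of SMAD2/3 was measured by ChIP-seq in 4 libraries. Per the labels' protocols, chromatin was sonicated and precipitated, and libraries were made with an Ion Torrent fragment kit, amplified by 15 cycles of PCR and selected by size. The submitters' processing notes name Bowtie 1.1.0, MACS 1.4.2, Picard and the hg19 build. The use of the input is not given in the sources used here. For every library the authors deposited 1 peak list, with a score per peak from their peak caller. The lowest scores are just above 50, as on the scale that this MACS version writes, −10 × log10 of the p-value.

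Positions are given from 1. Overlap means at least 1 bp in common. Ranks were taken by score within a list. No p-value was computed, since each line and time has 1 library. Windows of the HOX clusters were set by hand from the known hg19 positions of the genes, not from a file. Named in full are merged regions with peaks in at least 2 lists, a score of at least 100, or a BT549 peak. The window, members and lists were chosen with earlier results of these data known. Overlap counting was tested on simulated peaks. Python 3.11.15, numpy 2.4.6, scipy 1.17.1 and matplotlib 3.10.9 were used. Read depth is unknown.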

Additional observations from a re-analysis of the deposited data

Results flagged for a closer look

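The number of HOXA peaks moved in opposite directions in the 2 lines: from 1.5 h to 16 h it fell by 3 in Hs578T, from 22 to 19, and rose by 3 in BT549, from 2 to 5. This difference was not tested, with 1 library for each line and time. Counted as merged regions, Hs578T had 17 at each time and BT549 had 2 and 5. With a score of 100 or more, the counts were 6 and 12 in Hs578T and 1 and 2 in BT549, so the opposite direction was not seen there.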

How the results depend on the processing

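Of 89 alternative values for 17 results, 73 stayed within 1.5 times a count or within the interval of a share, and 16 did not. For shares of few peaks these intervals are wide, such as 11.8 to 76.9 for 2 of 5 BT549 peaks. Staying within them therefore says little about how stable such a share is. With scores of at least 100 in every list, the HOXA window held 6 and 12 Hs578T peaks at 1.5 h and 16 h, 1 and 2 BT549 peaks, and 13 merged regions. With this limit on both lists compared, 100% of the Hs578T peaks at 1.5 h and 50% of those at 16 h recurred. Requiring 50% of both peaks to overlap gave 27.3% and 31.6%. Shares of the whole lists were not taken under either of these settings. Without peaks under 150 bp, Hs578T had 13 peaks at 1.5 h and 17 at 16 h, so the order of the times turned. With the 1373 highest-score peaks of each list, BT549 had 1 HOXA peak at each time. The BT549 16 h peak then recurred (100%), sharing between the lines at 16 h was 0% in both directions, and HOXA held 50% of the BT549 1.5 h peaks in the 4 HOX windows, 1 of 2. The cause of these shifts was not tested beyond the smaller lists that each limit leaves. Counting any base in the window, peaks at most 500 bp apart, a merging distance of 1000 bp and windows widened by 100 kb moved none of the results they were tried on past those limits. No paired analysis was possible because the labels give no replicate numbers and these results come from no test. The 2 lines, each with both times, are given side by side. Depth is unknown, and it limits every count and score set across libraries.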
